A study of Mus musculus with 18 samples.

Results

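Of the 18 spinal cord libraries in the series, 11 came from mice without Cre recombinase and form the comparison described here: 6 libraries of P278KY mice and 5 of wild-type (WT) mice. They were chosen by the genotype label, which gives an unmodified Chat locus (Chat+/+) in all 11. P278KY mice are labelled P278KY+/- and have 1 copy of Gars, which encodes glycyl-tRNA synthetase, with the mutation P278KY. WT mice are labelled P278KY+/+ and have normal Gars. Both genotypes carry 1 copy of the Rpl22 allele for RiboTag (Rpl+/-), share the mixed background B6;CASTxB6.129 and were 8 weeks old. The libraries hold RNA recovered from whole spinal cord with an antibody to haemagglutinin. Each title carries a separate mouse name, so replicates are taken as separate mice.

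The study used RiboTag, a method in which Cre makes a chosen cell type add a haemagglutinin tag to its ribosomal protein Rpl22, so that ribosomes and the mRNA on them can be pulled down. Its other 7 libraries, 3 P278KY and 4 WT, had Cre under the control of Chat, the choline acetyltransferase gene. Chat is expressed by cholinergic neurons, motor neurons among them. Mice without Cre make no tagged ribosomes by design, and their libraries are the negative controls. The comparison of the genotypes among them asks what this background holds and whether it differs with the Gars genotype.

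Glycyl-tRNA synthetase joins glycine to its tRNA and is needed in every cell. Dominant changes in it cause an inherited motor and sensory neuropathy (Charcot-Marie-Tooth disease type 2D). When charged tRNA runs short or ribosomes stall, cells can switch on the integrated stress response, in which the factor Atf4 raises genes for amino acid supply and secreted hormones such as Fgf21.

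The background libraries held between 8177758 and 11480402 counts in WT and between 9876808 and 14450144 in P278KY mice. Mitochondrial ribosomal RNA took a mean of 41.5% ± 8.85 (SD, n = 5) of the counts in WT and 29.0% ± 5.82 (SD, n = 6) in P278KY, a difference of -12.5 percentage points (exact permutation test over 462 splits, two-sided p = 0.0173). Within pool 1 of the sequencing runs the difference was -8.14 (exact permutation p = 0.3) and within pool 2 it was -15.8 (exact permutation p = 0.2). With 10 splits in pool 1 and 20 in pool 2, neither of these tests could reach a p under 0.05. Pools were read from index sequences and lane sample numbers in the descriptions. Pool 1 held WT replicates 1 and 2 and P278KY replicates 1 to 3, and pool 2 the other 6. Xist was at 0.331 to 0.633 CPM in the libraries of pool 1 and at 308 to 1128 CPM in those of pool 2, so pool and sex cannot be told apart. Correlations of log2 CPM between libraries ran from 0.813 to 0.962 over 55 pairs. WT replicates 4 and 5 and P278KY replicate 6 stood apart, with a median correlation of 0.843, 0.884 and 0.86 with the other libraries against 0.931 to 0.942 in the rest. In these 3 libraries protein-coding genes took 23.0%, 33.8% and 37.5% of the counts, against 41.6% to 60.4% in the others.

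The background was a sample of the whole cord. Among the 15 protein-coding genes with the highest level in WT libraries, Lars2 was at the top (19350 CPM ± 19960, SD, n = 5), then Gm10800 (5618 CPM ± 5034). Lars2 had 271545 and 181502 reads in WT replicates 4 and 5, and 59345 to 77709 in the other WT libraries. The 15 also included the myelin gene Mbp, the synaptic gene Snap25, the microtubule gene Map1b, the neurofilament genes Nefm and Nefl, and Gm21897. They held 6 mitochondrial mRNAs as well, led by mt-Nd5, mt-Co1 and mt-Nd4. Per length, in the deposited TPM (transcripts per 1000000), Mbp stood at 2560 ± 969 (SD, n = 5), Snap25 at 2371 ± 1468 and Nefl at 613 ± 236 in WT mice. The astrocyte genes Slc1a2 (215 TPM ± 121) and Gfap (148 TPM ± 51.4) and the glycine transporter gene of inhibitory neurons, Slc6a5 (95.7 TPM ± 125), were lower. Chat stood at 3.37 TPM ± 1.31, Gars at 18.7 TPM ± 11.1 and Chodl at 6.76 TPM ± 3.33. The level of Mbp is thus above that of Chat in the same libraries by far more than the spread, while the levels of Mbp and Snap25 do not differ beyond it.

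Each gene's counts were then compared between genotypes with the quasi-likelihood test of edgeR, with pool as a term, over 16403 genes. Values per library are given as CPM, counts per 1000000 after TMM scaling, and differences as the log2 fold change of P278KY minus WT with its standard error (SE). Of the 16403 genes, 3 passed an adjusted p of 0.05, or 0.0183%. Chodl and Ahnak2 fell in P278KY mice (0.0122% of genes were called lower), and the pseudogene Gm10709 rose (0.0061% were called higher). At an unadjusted p under 0.05 there were 905 genes (5.52%), of which 387 were higher (2.36%) and 518 lower (3.16%). The median log2 fold change over all genes was -0.005, and it was 0.33 when libraries were scaled by total counts alone. That scaling moved the medians of the gene lists up in the same way. It turned the sign of many lists, among them the broad neuronal, interneuron, sensory neuron, vessel, blood, synthetase, ribosomal protein and respiratory chain lists. The medians below are thus to be read against that of all genes.

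**Figure D1:**
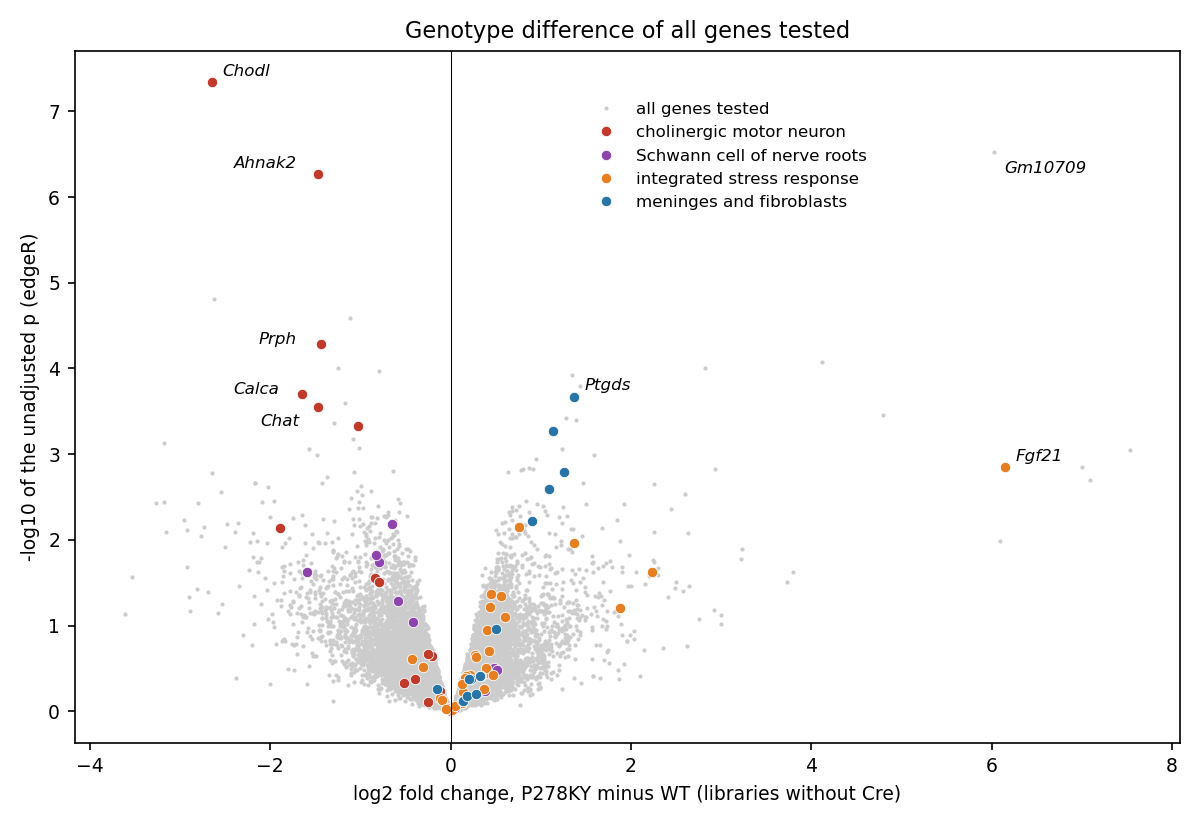
Each point is a gene tested in the 11 libraries without Cre, with its log2 fold change (P278KY minus WT) on the x axis and the -log10 of its unadjusted p from edgeR on the y axis, and members of 4 gene lists are coloured. Chodl (log2 fold change -2.65) and Ahnak2 (-1.47) lie at the top left and Gm10709 (6.02) at the top right, and genes of the motor neuron list lie mostly left of 0.

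Chodl encodes chondrolectin, a membrane protein known as a marker of fast motor neurons, and lies at chr16:78930948-78951733 (GRCm38). In WT libraries 1 to 5 it gave 15.2, 12.9, 10.9, 7.78 and 12.2 CPM. In P278KY libraries it ranged from 1.23 to 3.49 CPM, with a median of 1.69. These levels rest on 556 reads in WT and 169 in P278KY mice. The lowest WT library was thus above the highest P278KY library. The level was 6.27-fold lower in P278KY mice (log2 fold change -2.65 ± 0.29 SE, edgeR adjusted p = 0.000751), and the log2 fold change was -2.47 within pool 1 and -2.82 within pool 2. Pool 2 alone, with 3 libraries against 3, did not pass the test for Chodl (edgeR adjusted p = 0.154).

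Ahnak2 encodes a large scaffold protein of the AHNAK family and lies at chr12:112772194-112802657. WT libraries 1 to 5 gave 64.5, 48.7, 51.0, 86.3 and 99.6 CPM, and P278KY libraries ranged from 19.3 to 32.5 CPM with a median of 23.7. The groups did not overlap. The log2 fold change was -1.47 ± 0.19 SE (edgeR adjusted p = 0.00295), with -1.42 within pool 1 and -1.52 within pool 2. With scaling by total counts alone it was -1.10 and did not pass (edgeR adjusted p = 0.855), and within pool 2 alone the edgeR adjusted p was 0.323.

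Gm10709 is annotated as a processed pseudogene (chr9:7751725-7752204). It gave 0.083 and 0.193 CPM in WT libraries 1 and 2, or 3 reads in all, and no read in the other 3 WT libraries. The 6 P278KY libraries gave 8.48, 6.89, 6.62, 4.62, 0.721 and 0.996 CPM. All P278KY libraries were above all WT libraries, with the last 2 far below the other 4. The fitted log2 fold change was 6.02 ± 0.75 SE (edgeR adjusted p = 0.00245), and a fit over all 18 libraries ended the call (edgeR adjusted p = 0.687). Reads of a processed pseudogene may be shared with the gene it was copied from, so its level is uncertain.

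The cholinergic motor neuron list showed lower values in P278KY mice. Of its 20 genes, 16 passed the filter on low counts, and Isl1, Isl2, Mnx1 and Uts2b did not. The list, with Ahnak2 on it, was chosen with earlier results of these data known, so its counts only describe it. The test called 2 lower (Chodl and Ahnak2) and none higher. At an unadjusted p under 0.05, 9 of 16 were lower and 0 higher. In 15 of the 16 the log2 fold change was below 0, with a median of -0.82 against -0.005 over all genes. In 5 of them (Chodl, Ahnak2, Prph, Calca and Chat) every P278KY library was below every WT library, a pattern of 0.372% of all genes tested. The median of the list was -0.996 within pool 1, -0.98 within pool 2 and -0.76 without the 3 libraries that stood apart. In bulk tissue, fewer cells of a type and less RNA per cell cannot be told apart.

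**Figure D2:**
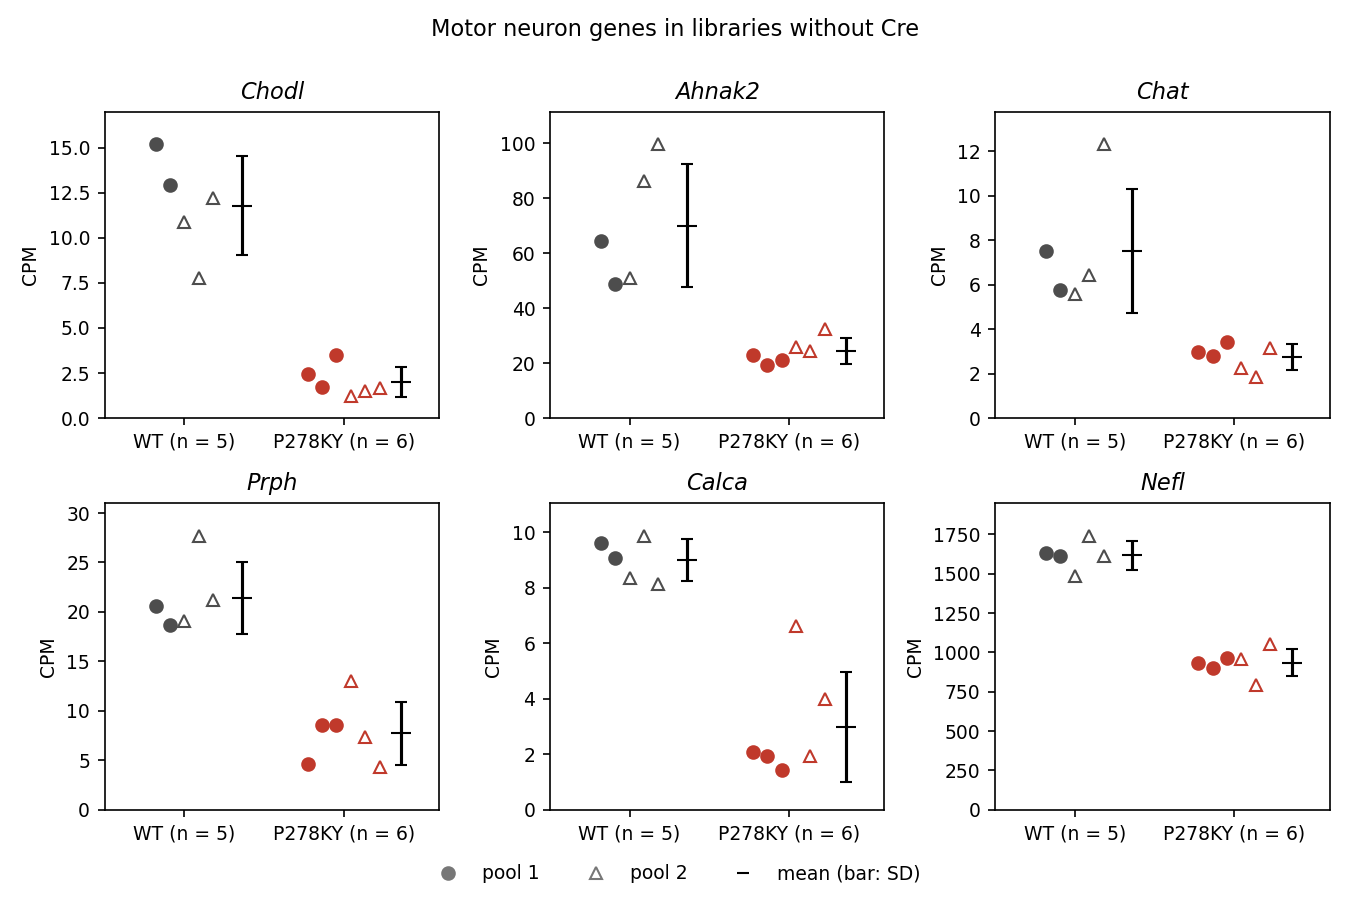
Each panel shows the CPM of a gene in the 5 WT and 6 P278KY libraries without Cre, with filled circles for pool 1, open triangles for pool 2, and the mean with its SD beside the points. In all 6 panels the P278KY libraries lie below the WT libraries.

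Chat, the enzyme that makes acetylcholine, gave 7.51, 5.78, 5.59, 6.45 and 12.3 CPM in WT libraries 1 to 5 and 1.84 to 3.42 CPM in P278KY libraries, with a median of 2.90. They stand for 328 reads in WT and 227 in P278KY mice. The groups did not overlap, but the log2 fold change of -1.47 ± 0.32 SE did not pass the main test (edgeR adjusted p = 0.287). It passed in the fit over 18 libraries (adjusted p = 0.034), with DESeq2 (0.0062) and with voom (0.0252). The other proteins of acetylcholine handling did not stand out. The choline transporter gene Slc5a7 had a log2 fold change of -0.12 (adjusted p = 0.925) and Ache, which breaks acetylcholine down, of -0.21 (adjusted p = 0.847) in edgeR. For Slc10a4, an orphan transporter of cholinergic vesicles, the value was -0.79 (edgeR adjusted p = 0.832). Ret, a receptor subunit for GDNF, was at 26.5 ± 6.82 CPM in WT and 26.7 ± 4.77 in P278KY (log2 fold change 0.00 ± 0.21 SE).

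Peptide and filament genes of motor and sensory neurons had lower values as well. Calca, the gene for calcitonin gene-related peptide, was at 8.12 to 9.86 CPM in WT and at 1.42 to 6.60 CPM in P278KY libraries (log2 fold change -1.65 ± 0.35 SE, edgeR adjusted p = 0.248). Its value was -2.35 within pool 1 and -1.07 within pool 2. Prph, the gene for the intermediate filament peripherin, was at 18.7 to 27.7 CPM in WT and 4.32 to 12.97 in P278KY (log2 fold change -1.43 ± 0.27 SE, edgeR adjusted p = 0.141). Calcb, a related peptide gene, had a log2 fold change of -1.89 (edgeR adjusted p = 0.832). Neither Calca nor Prph passed the main test, although neither had overlapping groups, and both passed with DESeq2 (adjusted p = 0.00608 and 0.000438) and voom (0.00707 for each).

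The 3 neurofilament genes, whose proteins fill large axons, had lower values in P278KY. Nefl, the light subunit, gave 1630, 1615, 1486, 1741 and 1614 CPM in WT libraries 1 to 5 and 934, 899, 966, 956, 792 and 1056 CPM in P278KY libraries 1 to 6. The groups were narrow and far apart, at 1617 ± 90.4 and 934 ± 87.0 CPM (SD). The log2 fold change was -0.79 ± 0.16 SE (edgeR adjusted p = 0.176), with -0.80 within pool 1 and -0.79 within pool 2, and it passed over all 18 libraries (adjusted p = 0.0468), with DESeq2 (1.59e-05) and with voom (0.000179). Nefm, the medium subunit, was at 1304 to 4105 CPM in WT and 710 to 1521 CPM in P278KY (log2 fold change -1.17 ± 0.26 SE, edgeR adjusted p = 0.276). Nefh, the heavy subunit, was at 462 to 1252 and 263 to 543 CPM (log2 fold change -1.03 ± 0.24 SE, edgeR adjusted p = 0.368). For Nefm and Nefh the groups overlapped through P278KY replicate 6, which was the highest of its group for both. Tubb3, a neuronal tubulin, had a log2 fold change of -0.60 (edgeR adjusted p = 0.832).

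Wider neuronal markers were measured beside these genes. A broad list of 12 neuronal genes, which itself holds Nefl, Nefm and Tubb3, had 0 called genes and a median log2 fold change of -0.09, and those 3 were its members lower at an unadjusted p under 0.05, while 1 was higher. Over 15 interneuron genes, 0 were called and the median was -0.07. Calca, Prph and Nefh are also genes of sensory neurons, whose cell bodies lie in dorsal root ganglia. Of 10 sensory neuron markers 7 could be tested, none was called, and their median was -0.66 (0.15 within pool 1 and -0.05 within pool 2, over those tested there). Their summed level ran from 5.07 to 33.0 CPM in WT and from 5.07 to 33.2 CPM in P278KY libraries, and Scn10a, a sodium channel of pain-sensing neurons, was at 0 in at least 1 library of each genotype. The highest sum in P278KY was that of replicate 4, which also had the highest Calca and Prph of its group. The part of sensory neuron RNA in the values of Calca, Prph and Nefh was not tested.

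The libraries with Cre, where ribosomes of cholinergic neurons were pulled down, gave the genotype difference in the same genes from other mice. All 3 Cre P278KY libraries were in pool 1, while Cre WT had 2 libraries in each pool. Genotype and pool are thus partly mixed among the Cre libraries. The fits that used Cre libraries had no pool term. Chodl was at 427 ± 183 CPM in Cre WT (SD, n = 4) and 72.0 ± 8.28 in Cre P278KY (SD, n = 3) on the scale of the fit over 18 libraries, and its log2 fold change within the Cre libraries was -2.53 ± 0.32 SE (edgeR adjusted p = 0.0032, where 2.32% of 14717 genes were called). Ahnak2 was at 634 ± 74.5 and 225 ± 51.4 CPM with -1.46 ± 0.21 SE (edgeR adjusted p = 0.00689). The difference between the fold change without and with Cre was 0.02 ± 0.51 SE for Chodl and -0.03 ± 0.31 SE for Ahnak2 (edgeR adjusted p = 0.996 and 0.99), where 0.654% of 17133 genes passed this test. Chat differed between genotypes by -0.17 ± 0.26 SE with Cre against -1.47 without, a difference of -1.24 ± 0.37 SE that did not pass after adjustment (edgeR adjusted p = 0.145). For Prph the values were -0.34 with Cre and -1.43 without (difference -1.08, edgeR adjusted p = 0.307), and for Nefl -1.29 and -0.79 (difference 0.54, edgeR adjusted p = 0.371). Chodl and Ahnak2 thus had about the same fold change with and without Cre, with a difference that could not be told from 0 at these errors.

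**Figure D3:**
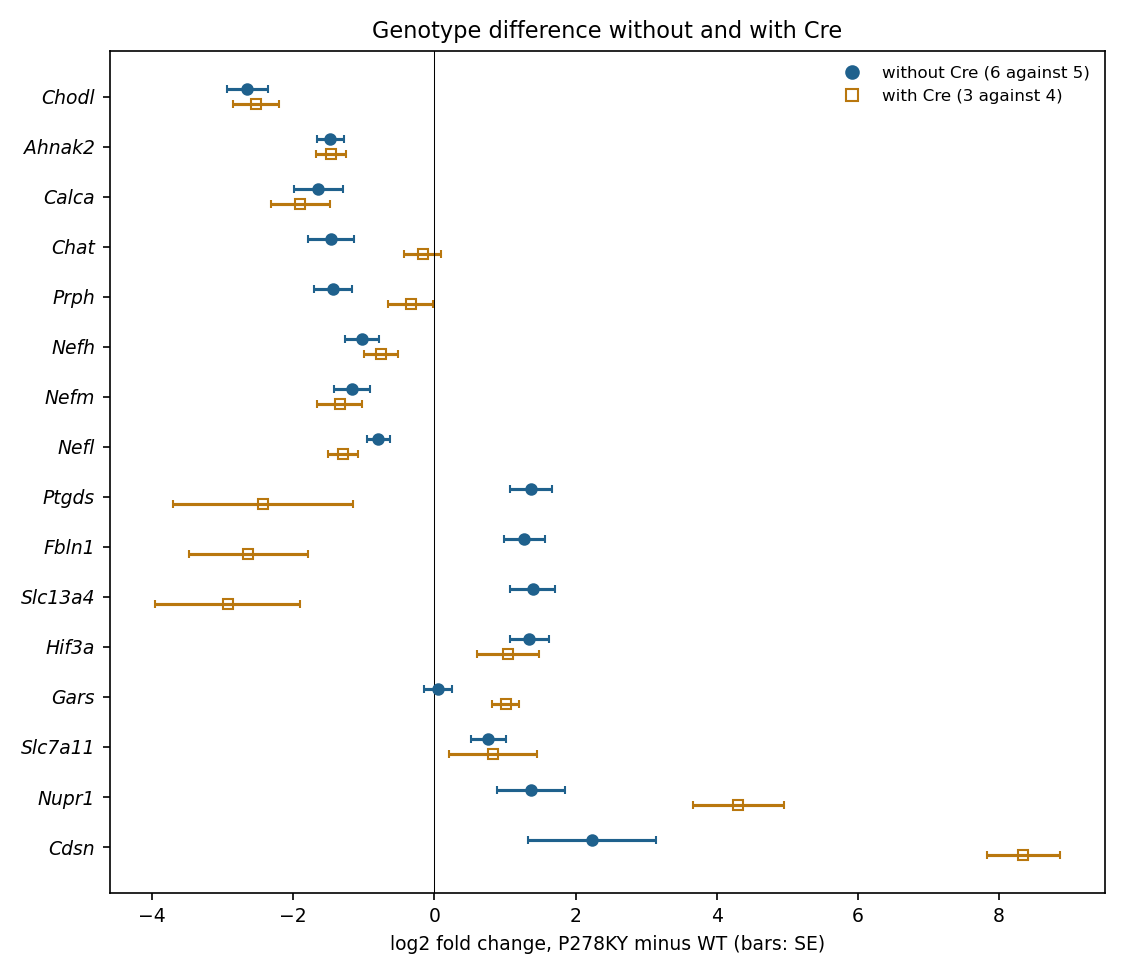
The x axis gives the log2 fold change of P278KY minus WT with its SE for 16 genes, as filled circles for the 11 libraries without Cre and open squares for the 7 libraries with Cre. The circles and squares of Chodl (-2.65 and -2.53) and Ahnak2 (-1.47 and -1.46) lie together, while those of Fbln1, Slc13a4 and Cdsn lie apart.

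Schwann cell genes of the nerve roots had values on both sides of 0, and none passed the test. Of the 11 genes of that list, all were tested, 7 were below 0 and 4 above, 4 were lower and 0 higher at an unadjusted p under 0.05, and the median log2 fold change was -0.42 (-0.70 within pool 1 and -0.23 within pool 2). Drp2, a scaffold protein of the Schwann cell membrane outside the myelin sheath, gave 81.3, 169, 116, 64.3 and 92.1 CPM in WT libraries 1 to 5 and 75.6, 108, 77.7, 57.1, 58.4 and 47.2 CPM in P278KY libraries 1 to 6. WT replicate 2 was highest and P278KY replicate 6 lowest, and the groups overlapped. The log2 fold change of Drp2 was -0.64 ± 0.21 SE (edgeR adjusted p = 0.832). Prx, its partner in the membrane, had -0.82 ± 0.30 SE, and Cldn19, a tight junction gene of myelinating Schwann cells, had -0.79 ± 0.30 SE (edgeR adjusted p = 0.832 for each). Above 0 were Ncmap (0.52) and Egr2 (0.48), a myelin transcription factor of Schwann cells (edgeR adjusted p = 0.868 and 0.863). Oligodendrocytes make the myelin of the cord itself, and of their 17 marker genes 0 were called, with a median of 0.003. The summed level of the root list ran from 283 to 738 CPM in WT and from 197 to 596 CPM in P278KY, and how much root tissue was left on each cord is not in the labels.

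**Figure D4:**
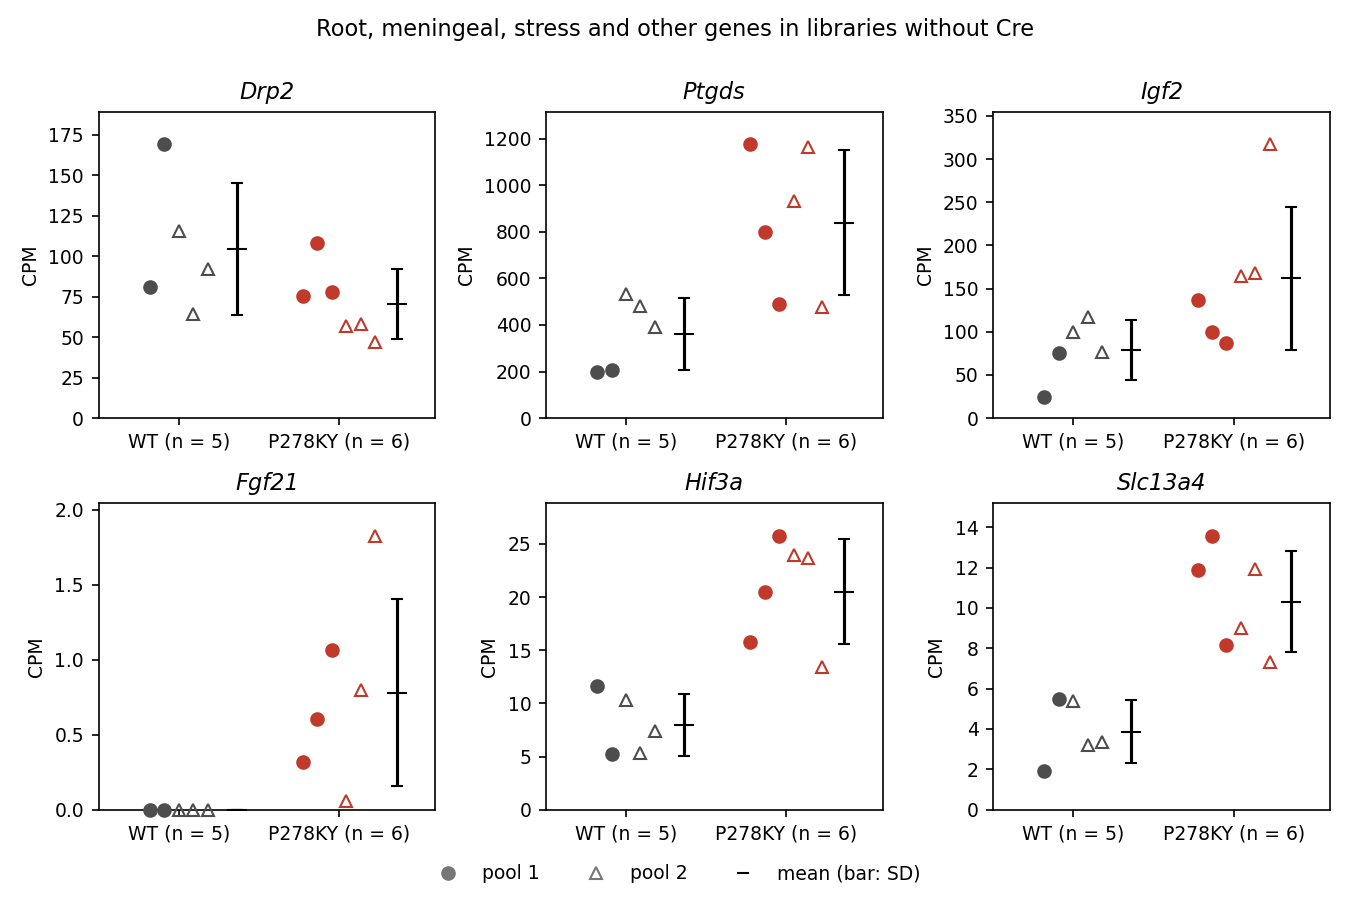
Each panel shows the CPM of a gene in the 5 WT and 6 P278KY libraries without Cre, with filled circles for pool 1, open triangles for pool 2, and the mean with its SD beside the points. Fgf21, Hif3a and Slc13a4 are higher in every P278KY library than in any WT library, and Drp2, Ptgds and Igf2 overlap between the groups.

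Genes of the meninges, the sheath around the cord, had higher values in P278KY. All 14 genes of the list were tested and 0 were called, while 13 of 14 had a log2 fold change above 0 and 5 an unadjusted p under 0.05, with a median of 0.31 (0.49 within pool 1 and 0.53 within pool 2). Ptgds, prostaglandin D synthase, gave 199, 205, 532, 481 and 393 CPM in WT libraries 1 to 5 and 1175, 798, 491, 934, 1163 and 477 CPM in P278KY libraries 1 to 6. WT replicates 1 and 2 were lowest, and P278KY replicates 3 and 6 lay among the upper WT values. For Ptgds the log2 fold change was 1.37 ± 0.29 SE (edgeR adjusted p = 0.249), with 2.02 within pool 1 and 0.86 within pool 2. Igf2, an insulin-like growth factor, had 1.13 ± 0.27 SE (edgeR adjusted p = 0.396). The collagen-binding gene Fmod had 1.25 ± 0.33 SE (edgeR adjusted p = 0.63), and Aldh1a2, which makes retinoic acid, had 1.09 ± 0.31 SE (edgeR adjusted p = 0.786). The collagen genes Col1a1 (0.13) and Col3a1 (0.14) had small log2 fold changes. Among the Cre libraries Ptgds had the opposite sign (-2.43 ± 1.28 SE, edgeR adjusted p = 0.426), and its difference between the kinds of library did not pass (3.60 ± 1.14 SE, edgeR adjusted p = 0.215).

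The integrated stress response was described by a list of 37 genes, of which 32 could be tested. None was called, 6 were higher and 0 lower at an unadjusted p under 0.05, and 27 of 32 had a log2 fold change above 0, with a median of 0.31 (0.29 within pool 1 and 0.19 within pool 2). The summed level of the 37 genes was 456, 482, 465, 484 and 492 CPM in WT libraries 1 to 5 and 553, 581, 548, 578, 572 and 606 CPM in P278KY libraries 1 to 6. Every P278KY library was thus above every WT library, which with TMM scaling none of the other 32 lists showed in either direction. The groups stayed apart with RLE scaling (454 to 494 against 543 to 620 CPM), but overlapped when scaled by total counts alone (223 to 601 against 370 to 840 CPM). With that last scaling it was the motor neuron list whose sums did not overlap, at 693 to 888 CPM in WT and 424 to 651 CPM in P278KY. These lists were chosen with earlier results of the series known.

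Single members of the response were low or varied. Fgf21, a secreted hormone and an Atf4 target (chr7:45613886-45615490), had no read in any of the 5 WT libraries and 5, 11, 15, 1, 10 and 11 reads in P278KY libraries 1 to 6. It was therefore at least 9.53-fold higher in P278KY, with a floor of 3 counts over the WT group, but it did not pass the main test (edgeR adjusted p = 0.63). The Cre P278KY libraries, with 104 ± 33.8 CPM of Fgf21 (SD, n = 3), were all in pool 1. The P278KY libraries without Cre gave 5, 11 and 15 reads in pool 1 and 1, 10 and 11 reads in pool 2, and carry-over of reads between libraries was not tested. Slc7a11, the cystine transporter, was at 15.1 to 40.3 CPM in WT and 34.4 to 66.6 CPM in P278KY (log2 fold change 0.76 ± 0.25 SE, edgeR adjusted p = 0.832). Nupr1, a small stress-induced nuclear protein, was at 0.334 to 3.37 and 2.70 to 6.51 CPM (1.37 ± 0.48 SE, edgeR adjusted p = 0.832). The transporter gene Slc7a5 had 0.56 and the folate enzyme gene Aldh1l2 had 0.45 (edgeR adjusted p = 0.832 for each). Atf4 itself was at 38.4 ± 12.5 CPM in WT and 38.3 ± 5.98 in P278KY (log2 fold change 0.02), Asns, asparagine synthetase, had 0.14 and Ddit3 had -0.30. Atf3, Trib3, Gdf15, Adm2 and Eif4ebp1 were too low to be tested.

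Atf4 acts with partners of the C/EBP family at short composite elements near the start of its targets. The bases before the RefSeq start (GRCm38.p6) of 3 of these genes and of Gars are shown because the element can be read in them. The motif searched was TGATGNAA on both strands, no other motif was searched, and its matches are in capitals.
Fgf21, chr7:45615491-45615640, minus strand: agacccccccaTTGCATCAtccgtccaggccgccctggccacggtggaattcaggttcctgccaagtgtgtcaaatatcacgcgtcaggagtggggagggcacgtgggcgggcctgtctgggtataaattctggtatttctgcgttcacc
Nupr1, chr7:126625471-126625620, minus strand: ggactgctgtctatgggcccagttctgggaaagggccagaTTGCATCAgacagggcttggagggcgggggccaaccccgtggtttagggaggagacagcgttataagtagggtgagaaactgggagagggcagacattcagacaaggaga
Slc7a11, chr3:50443614-50443763, minus strand: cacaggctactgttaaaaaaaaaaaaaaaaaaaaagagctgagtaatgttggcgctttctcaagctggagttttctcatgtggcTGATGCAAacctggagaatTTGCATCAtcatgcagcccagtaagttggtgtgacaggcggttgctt
Gars, chr6:55037851-55038000, plus strand: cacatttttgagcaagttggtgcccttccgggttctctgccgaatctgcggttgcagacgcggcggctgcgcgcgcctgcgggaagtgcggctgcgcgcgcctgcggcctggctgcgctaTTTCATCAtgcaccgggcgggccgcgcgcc
Fgf21 and Nupr1 had 1 match each in these 150 bases, Slc7a11 had 2 and Gars had 1, which reads TTTCATCA. In windows of 300 bases (250 before to 50 after the start), the motif was held by 3.97% of 32851 windows, or at 4.51% of the genes. Of the 31 genes of the stress response list with a window, 10 held it (32.3%), among them Asns, Atf3, Chac1 and Trib3, and of 15 cytosolic synthetase genes 5 did (33.3%). A match describes letters and not binding.

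Gars itself did not differ between the genotypes beyond its spread in the background. It gave 31.0, 22.3, 42.8, 29.0 and 37.5 CPM in WT libraries 1 to 5 and 32.2, 36.9, 38.4, 36.3, 30.9 and 25.1 CPM in P278KY libraries 1 to 6, which overlap throughout. The log2 fold change was 0.05 ± 0.20 SE (edgeR adjusted p = 0.973), with 0.42 within pool 1 and -0.25 within pool 2. P278KY changes the coding sequence, so a level does not check the label. In the Cre libraries Gars was higher in P278KY by 1.01 ± 0.19 SE (edgeR adjusted p = 0.0219), and the difference from the value without Cre was -0.94 ± 0.28 SE (edgeR adjusted p = 0.149). Rpl22, the gene that carries the tag, was at 22.5 ± 4.43 CPM in WT and 17.8 ± 3.33 in P278KY (log2 fold change -0.35 ± 0.21 SE, edgeR adjusted p = 0.832), and scaling by total counts alone gave 0.015. Of 23 genes for cytosolic tRNA synthetases and their partners, 0 were called and the median was -0.11. Qars, which charges glutamine tRNA, was the 1 of the 23 whose groups did not overlap (0.372% of all genes were lower without overlap), at 12.1 ± 3.09 CPM in WT and 7.23 ± 1.77 in P278KY (-0.73, edgeR adjusted p = 0.832).

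The mixed strain background means that a stretch of chromosome can be inherited with the P278KY allele. Within 20 Mb of Gars on chromosome 6, 205 genes were tested and 0 were called by edgeR, 8 (3.9%, against 5.52% of all genes) had an unadjusted p under 0.05, and the median log2 fold change was 0.03. Slc13a4, a sulfate transporter gene at chr6:35267957-35308131, lies close to the edge of this stretch. It was the 1 gene of the stretch that DESeq2 and voom called. It was also the only 1 of the 205 without overlap between the groups, where 0.732% of all genes had none. It was at 1.92, 5.49, 5.40, 3.22 and 3.33 CPM in WT libraries 1 to 5 and 7.31 to 13.6 CPM in P278KY libraries, with a median of 10.4 (log2 fold change 1.39 ± 0.32 SE, edgeR adjusted p = 0.347). Its difference had the opposite sign among Cre libraries (-2.93 ± 1.03 SE, edgeR adjusted p = 0.206), and the difference between the 2 kinds of library passed the test (4.31 ± 0.90 SE, edgeR adjusted p = 0.0236). Ptgds and Fbln1, which are not named for their position, had opposite signs without and with Cre as well. The fits behind these values with Cre had no pool term. A link of Slc13a4 to the inherited stretch was not tested.

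No gene was called in the lists of other cell types of the cord. The median log2 fold change was 0.05 over 14 astrocyte markers, 0.05 over 16 microglia markers, -0.09 over 16 vessel markers and -0.02 over 15 blood genes. Genes of oligodendrocyte precursors had higher values, with 6 of 8 above 0, 2 higher at an unadjusted p under 0.05 and a median of 0.32 (0.31 within pool 1 and 0.36 within pool 2), and their summed level was 124 to 170 CPM in WT and 167 to 211 CPM in P278KY. Within the astrocyte list Aqp4 had 0.60 and Slc7a10 -0.67 (edgeR adjusted p = 0.832 for each). Skeletal muscle transcripts varied between libraries far more than between genotypes: the 24 genes summed to 185 to 2120 CPM in WT and 298 to 1817 CPM in P278KY, with the highest sums in WT replicate 3 and P278KY replicate 1. Fat genes were detected in part of the libraries, apart from Scd1 and Cidea, which had reads in every library. Of the 10 fat genes of the list 5 could be tested, and none was called. All 5 had a log2 fold change above 0, and 1 was higher at an unadjusted p under 0.05. Their median was 2.49 (2.70 within pool 1, 2.18 within pool 2 and 0.97 without the 3 libraries that stood apart). The summed level of the list overlapped, at 189 to 285 CPM in WT and 215 to 555 CPM in P278KY. That sum was mostly Scd1, with 10938 reads in WT and 21605 in P278KY. Fabp4 came next, with 74 and 654 reads. WT replicate 1 had 2995 reads of Scd1 and 0 of Adipoq, Fabp4 and Cfd, so the sum does not measure fat alone. Ucp1 of brown fat was at 0 to 0.664 CPM in WT and 0.055 to 31.7 CPM in P278KY. The part of muscle and fat RNA in other results was not tested.

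**Figure D5:**
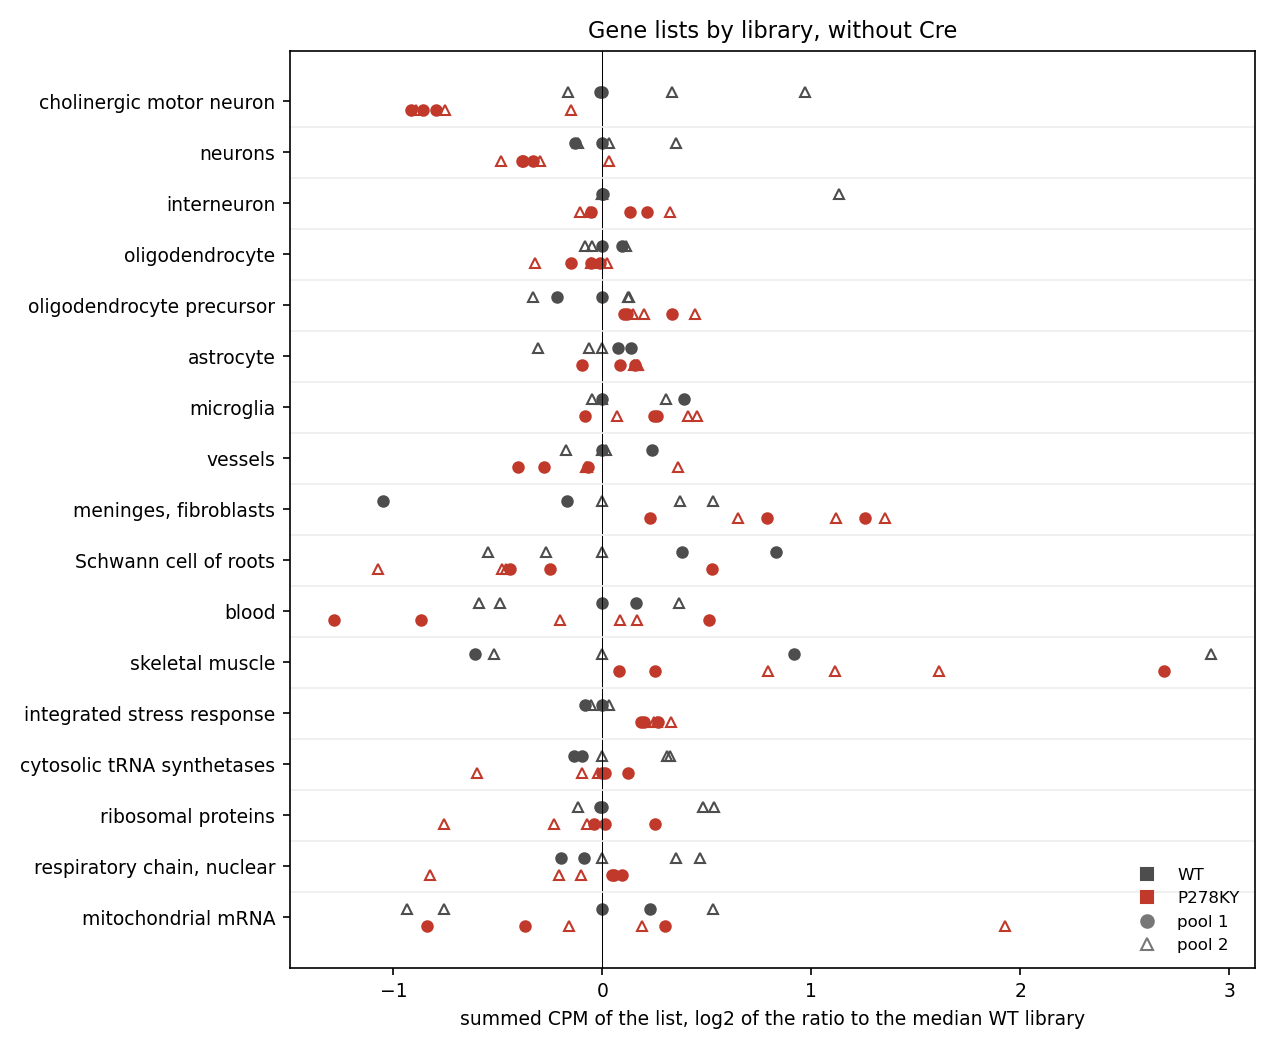
For 17 gene lists the x axis gives the summed CPM of the list in each library without Cre, as the log2 of its ratio to the median WT library, with WT in grey, P278KY in red, filled circles for pool 1 and open triangles for pool 2. The integrated stress response list separates the genotypes, most P278KY libraries lie left of WT for the motor neuron list, and muscle and mitochondrial lists spread widely within each genotype.

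Translation and energy genes had opposite signs in the pools. For 78 ribosomal protein genes the median log2 fold change was -0.28, made up of 0.10 within pool 1 and -0.62 within pool 2, and it was 0.07 without the 3 libraries that stood apart. For 73 nuclear genes of the respiratory chain it was -0.35, with 0.15 within pool 1, -0.74 within pool 2 and 0.08 without those libraries. The 13 mitochondrial mRNAs went the other way, with 0.52 in all, -0.25 within pool 1, 1.17 within pool 2 and 0.10 without the 3 libraries. No gene of the 3 lists was called. With scaling by total counts alone the medians were 0.14 for ribosomal proteins, 0.08 for the nuclear respiratory chain and 0.79 for mitochondrial mRNAs. A test of the genotype difference between the pools called 0 of 17273 genes with edgeR, while 1463 (8.47%) had an unadjusted p under 0.05 and DESeq2 called 31 of the 2868 genes to which it gave an adjusted p (1.08%). Without WT replicate 3 edgeR called 89.

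DESeq2 called 32 genes (0.196%), 12 of them higher (0.0735%) and 20 lower (0.122%), and voom with sample weights 27 (0.165%), 9 higher (0.0549%) and 18 lower (0.11%), in the main comparison. They shared 17, of which 5 were higher and 12 lower in P278KY, and these included the 3 genes called by edgeR. In 13 of the 17 the groups did not overlap, against 0.732% of all genes. Beside genes described above, they included Hif3a, Osr1, Fbln1, Sptbn5, Hmcn1 and Palm3, and all genes named from here on were chosen after their values were seen. Hif3a, a member of the hypoxia-inducible factor family, was at 5.20 to 11.7 CPM in WT and 13.4 to 25.8 CPM in P278KY (log2 fold change 1.35 ± 0.27 SE, edgeR adjusted p = 0.177). Osr1, a transcription factor of mesenchymal cells, was at 0.145 to 1.80 and 3.14 to 6.41 CPM (2.83 ± 0.56 SE, edgeR adjusted p = 0.176). Fbln1, an extracellular matrix gene, had overlapping groups (1.28 ± 0.29 SE, edgeR adjusted p = 0.341).

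On the lower side, Sptbn5, a spectrin gene annotated as a processed transcript, was at 2.94 to 13.5 CPM in WT and 0.641 to 1.65 CPM in P278KY (log2 fold change -2.62 ± 0.44 SE, edgeR adjusted p = 0.0635). Its WT values were highest in replicates 4 and 5, and without the 3 libraries that stood apart the value was -1.89. Hmcn1, an extracellular matrix gene, was at 20.3 to 68.6 and 10.96 to 17.3 CPM without overlap (-1.24 ± 0.25 SE, edgeR adjusted p = 0.176). Palm3, of the paralemmin family, overlapped between the groups (-1.57 ± 0.39 SE, edgeR adjusted p = 0.527). The pseudogenes Gm4735 and Gm7353 had large positive fitted values (4.80 and 4.12), but P278KY replicate 3 gave 0.427 CPM of Gm4735 against 12.9 to 25.5 in the other 5. Eno1, an enolase gene of glycolysis, had -1.09 ± 0.26 SE while its near-identical copy Gm5506 had 1.44 ± 0.30 SE (edgeR adjusted p = 0.478 and 0.218). The counts of such copies may be split between them, so both values are uncertain, and the strain origin of each library at these sites was not tested.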

How the data were processed

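RNA recovered with an antibody to haemagglutinin from spinal cord was sequenced in 18 mice, of which the 11 without Cre were compared. The authors deposited 1 table per library with RSEM expected counts for 38924 genes, per the file headers. The deposited TPM values were used only to compare levels between genes. The submitters' processing notes list Bowtie2 2.2.0 beside RSEM 1.2.12. For the counting, the genome build and annotation were not given in the sources used here. Expected counts were whole for 83.0% to 87.4% of genes and were rounded, which changed no total by more than 0.000964%. Positions and biotypes are those of GENCODE M21 (GRCm38), which held 37607 of the identifiers.

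Counts were tested with edgeR 4.0.16 in R 4.3.3 (filterByExpr, TMM, robust quasi-likelihood, genotype plus pool), two-sided, with Benjamini-Hochberg adjustment over all genes tested and a threshold of 0.05. Adjusted p-values without a named tool are from edgeR. The interaction with Cre used 4 group means over 18 libraries, and the genotype difference with Cre the 7 Cre libraries. Neither had a pool term. DESeq2 1.42.0, voom with sample weights (limma 3.58.1), other scalings and filters, each pool alone and each library left out were alternatives. Correlations between libraries used log2 CPM with a prior count of 2. The procedure was checked on simulated data of 15792 genes. It called 25% of 100 genes changed 2-fold and 76% of 100 changed 4-fold, with 7 false calls. A gene that was not called may therefore still differ.

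The libraries compared and the 33 gene lists were chosen with earlier results of these data known. Named genes were Gars, Rpl22 and Chat, called genes whose mean log2 CPM exceeded 1 and whose groups did not overlap (up to 10 rises and 10 falls, predicted genes and pseudogenes left out), up to 4 members of a list with the smallest adjusted p, and the 15 protein-coding genes highest in WT. Other list members and genes were named after their values were seen, among them Gm10709, Slc13a4 and Qars. Some genes are not reported here, and are left out of the lists. Shares of mitochondrial RNA were compared by exact permutation. Reads can be PCR copies of the same molecule, and the floor of 3 counts covers counting error only.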

Additional observations from a re-analysis of the deposited data

Results flagged for a closer look

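A test for a library far from the rest of its group was run on 68 groups of values (the named genes and shares in each genotype) and marked 6, where chance marks about 1 in 20. In P278KY replicate 6, Nefm was at 1520 CPM against 911 in the next library, and Nefh at 543 CPM against 296. In P278KY replicate 3, Gm5506 was at 19.6 CPM against 65.9 in the next library, and Gm4735 at 0.427 CPM against 12.9. In WT replicate 1, Igf2 was at 24.4 CPM against 75.5 in the next library, and Gm7353 at 1.17 CPM while the other 4 WT libraries had none.

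Of the genes named in the text, 3 passed the edgeR interaction test of the genotype difference without and with Cre, which called 112 of 17133 genes in all. That test had no pool term, and every Cre P278KY library was in pool 1. Cdsn, the corneodesmosin gene, was on the stress response list, which was chosen with earlier results of these data known. For Cdsn the log2 fold change without Cre minus that with Cre was -6.033 ± 1.17 SE (adjusted p = 0.0119). It came from 8.34 with Cre (0.126 CPM in Cre WT and 37.7 in Cre P278KY) and 2.24 without. For Fbln1 it was 3.735 ± 0.80 SE (adjusted p = 0.0273), from -2.63 with Cre and 1.28 without. For Slc13a4 it was 4.306 ± 0.90 SE (adjusted p = 0.0236), from -2.93 with Cre and 1.39 without.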

How the results depend on the processing

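The number of called genes (3) was 36 in pool 1 alone, 32 with DESeq2, 27 with voom, 132 without a filter on low counts and 12 without the 3 libraries that stood apart (an alternative chosen after seeing the data), and leaving out each library in turn gave 3 to 7. It was 3 as well with scaling by total counts alone (2 higher, 1 lower) and without the pool term (0 higher, 3 lower). With the mouse number as a block 13 genes were called, none of them among the 3, and the adjusted p was 0.0809 for Chodl, 0.134 for Ahnak2 and 0.265 for Gm10709. The meaning of the number is not given in the labels. The 3 pairs of a WT and a P278KY library with a shared number had correlations of -0.077 to 0.075. Other pairs had -0.155 to 0.148. All 3 pairs, over 2 numbers, lay across the pools, so they cannot show whether the number pairs the samples. WT replicates 4 and 5 share a number, as do P278KY replicates 2 and 3, and 4 and 5. Likeness within a genotype was not tested. Within 20 Mb of Gars, 1 gene instead of 0 was called with the mouse number block, DESeq2, voom or no filter. The interaction of genotype with pool gave 31 genes with DESeq2 and 0 to 89 when leaving out each library (89 without WT replicate 3). The interaction of genotype with Cre (112 genes) gave 406 in pool 1 alone.

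The difference in mitochondrial ribosomal RNA was -8.135 in pool 1 (exact permutation p = 0.3), -15.77 in pool 2 (exact permutation p = 0.2) and -14.89 to -9.382 when leaving out each library. Neither pool alone had enough splits to reach a p under 0.05. The difference in protein-coding genes was 7.463 to 15.41 percentage points when leaving out each library, against 11.76 with all 11 (exact permutation p = 0.104). It passed without WT replicate 3 (15.41, exact permutation p = 0.0429) or P278KY replicate 6 (14.67, exact permutation p = 0.0476). The log2 fold change of Gars turned to -0.249 in pool 2, -0.026 with the mouse number block and -0.091 without WT replicate 2, within a range of -0.091 to 0.156 when leaving out each library, and that of Rpl22 turned to 0.015 with total counts alone. Of 783 values of 32 named genes under the alternatives, 701 kept their direction and side of the threshold, 71 newly passed, 7 no longer passed and 4 turned. The cause of these changes was not tested. Counting noise limits Chat, Fgf21 and other genes with few reads.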
